A study of Mus musculus with 24 samples.

Results

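Differentiation of control C2C12 cells was followed by comparing the libraries of day 3 with those of day 0, with all genes of the deposited count table as candidates. These are 4 of the 24 RNA-seq libraries of the series, and 15303 of the 28109 listed genes had enough reads to be tested. Of the genes tested, 2450 (16.0%) rose and 1940 (12.7%) fell, where rose and fell mean an edgeR adjusted p under 0.05 together with a log2 fold change over 1 in size. Messages for the thick filament, the calcium release machinery, the acetylcholine receptor and the fusion proteins myomaker and myomixer rose, many of them from a few CPM or less, while the 101 genes examined for DNA replication and mitosis fell. Many of the 51 mitosis genes lost their call without either day 3 library. Their median log2 fold change was -3.26, and it was -3.27 without day 3 replicate 1 and -3.21 without day 3 replicate 2.

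C2C12 is an immortal mouse myoblast line, labelled as coming from the C3H strain. In the series, C2C12 cells and primary myoblasts (PMs, labelled as C57/B6) received a control siRNA that targets luciferase (siControl) or a pair of siRNAs that silence Tead1 and Tead4 (siTead1/4), and RNA was taken at days 0, 3 and 6, with 2 biological replicates in each group. The comparison was between siControl C2C12 libraries only. Day 0 cells were proliferating cells collected a day after transfection, and day 3 cells had then spent their time in medium low in horse serum. All groups carried a transfected siRNA, so no untransfected cells entered the comparison. The siControl PMs at the same days, and the siControl C2C12 cells at day 6, were the only other groups compared. The siTead1/4 libraries were part of the fits that estimated the spread, and their levels were not compared. The total count was 33317817 and 52784510 reads in the day 0 libraries and 42695801 and 50042946 reads in those of day 3. All levels are in CPM, which are counts scaled to a common library size with TMM, a factor that aligns the bulk of the genes between libraries. The factors were computed for C2C12 cells and for PMs apart, so levels are not aligned between the cell types. With 3 counts taken as the least that can be read, the floor was 0.0894 and 0.0559 CPM in the day 0 libraries and 0.0722 and 0.0625 CPM in the day 3 libraries. Values are listed for replicates 1 and 2 in that order.

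Skeletal muscle forms when myoblasts leave the cell cycle, switch on the muscle program and fuse into multinucleated myotubes. The bHLH factors Myod1 and Myf5 mark the committed myoblast, Myog accompanies terminal differentiation, and both act together with Mef2 proteins at E-boxes and Mef2 sites of muscle genes. Id proteins hold bHLH factors inactive in growing cells, and the Cdk inhibitor p21 and the retinoblastoma protein keep differentiating cells out of the cycle. C2C12 cells are the standard line for this process because lowering the serum is enough to start it.

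Replicates lay close together compared with the distance between days. The correlation of log2 CPM across genes was 0.9938 between the day 0 replicates and 0.9947 between those of day 3, and the first principal component of the siControl C2C12 libraries, which parted day 0 from days 3 and 6, held 90.3% of the variance. Between replicates, 151 genes (0.987%) differed by more than 2-fold at day 0 and 101 genes (0.66%) at day 3. At day 0, filament genes were higher in replicate 1 than in replicate 2. The median gene of the thick filament list was 0.69 higher in it on the log2 scale, and the median gene of the thin filament list was 0.50 higher. Other muscle lists ranged from above to below the 0.02 of all genes, with medians of 0.23 for the Z-disc, 0.18 for the neuromuscular junction, 0.10 for excitation-contraction coupling, -0.14 for the dystrophin complex and -0.12 for the bHLH and Mef2 factors. At day 3, genes of the serum response list were 0.40 higher at the median in replicate 1. The label of the cells was borne out by Myod1 and Desmin, both abundant at day 0, while several markers of other cell types were near the floor. Ptprc, the pan-leukocyte marker, and Pecam1, the endothelial marker, never passed 4 counts in a library, and the adipocyte genes Plin1, Cidec and Cfd were at 0 counts in all 4 libraries. Other genes on the marker lists were abundant, and the summed level was 5148 and 4257 CPM at day 0 for the osteoblast and chondrocyte list, which is mostly Spp1, and 175 and 189 CPM for the fibroblast list.

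The rises were larger than the falls. A change beyond 3 on the log2 scale was seen for 960 genes that rose and 362 that fell, and beyond 7 for 217 and 12 genes. Among the genes that rose, 421 were at or under the floor in both day 0 libraries, and 1133 were under 1 CPM on average at day 0. Among those that fell, 110 were at or under the floor at day 3. The 10 largest rises among genes with at least 10 counts in each library were Pgm5, Gm7325, Myh3, Casq2, Mybph, Myh7, Myl4, Tnnc2, Mb and Actn2, and each of these genes is known from striated muscle. Among the 10 largest falls by the same rule were Nefl, Ptprn, Hhip, Plek, Nefm, 1700012B09Rik, Npr3, Fosl1 and Trim66, which encode neurofilament subunits, secreted and signalling proteins and transcription regulators, among others. In absolute terms H19, Myh3, Acta1, Mylpf and Fn1 gained the most CPM, and Vim, Spp1, Pkm2, Actb and Flna lost the most.

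**Figure D1:**
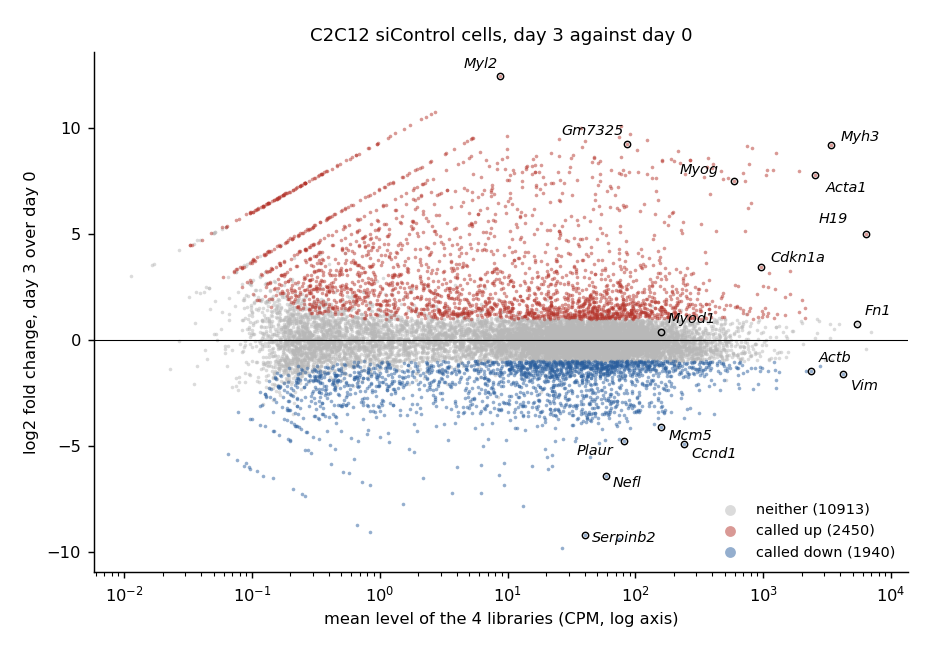
Each point is a gene tested in C2C12 siControl cells, with the mean CPM of the 4 libraries on the x axis (log scale) and its log2 fold change, day 3 against day 0, on the y axis. Colours mark the 2450 genes that rose and the 1940 that fell, the rises reach further from 0 than the falls, and the diagonal streaks are genes with 0 counts at a day.

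Among the transcription factors of the muscle program, the differentiation factors rose and the determination factors did not pass the test. Of 20 tested genes for bHLH and Mef2 factors and their partners, 8 rose and 1 fell, with a median log2 fold change of 0.73 against -0.01 for all genes tested. The fall was Tcf3, which encodes an E protein, and its log2 fold change of -1.08 came to -0.99 without day 3 replicate 2. Myog (chr1:136186581-136189124, mm9) was at 10.2 and 3.05 CPM at day 0 and at 1177 and 1157 CPM at day 3. The days were far apart, and the log2 fold change was 7.47 ± 0.77 (SE, n = 2 per day, edgeR adjusted p = 5.84e-05). Mef2c, which acts with Myog at muscle genes, was at 9.32 and 10.2 CPM and then at 358 and 564 CPM, a log2 fold change of 5.56 ± 0.44 (SE). Mef2a, the more abundant Mef2 gene at day 0, was at 89.6 and 105.5 CPM and then at 370 and 439 CPM, with a log2 fold change of 2.05. Mef2d, the remaining family member that rose, had a log2 fold change of 1.72. Myod1, already high in myoblasts, was at 144 and 133 CPM at day 0 and at 176 and 179 CPM at day 3. The groups did not overlap, but the log2 fold change of 0.36 ± 0.23 (SE) did not pass the test (edgeR adjusted p = 0.237). Myf5, the other determination factor, was at 23.3 and 41.9 CPM and then at 14.7 and 15.9 CPM, with a log2 fold change of -1.09 that did not pass either (edgeR adjusted p = 0.164). Myf6, a factor of mature fibres, stayed under 2 CPM in the 4 libraries.

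Of 20 genes for progenitor factors and bHLH antagonists, 5 rose and 6 fell. The median was -0.05, or -0.17 without day 3 replicate 1, -0.12 without day 0 replicate 1 and 0.10 without day 3 replicate 2. The falls numbered 3 without day 3 replicate 2 and 4 without either replicate 1 library. Id1, an inhibitor that titrates E proteins, was at 133 and 143 CPM at day 0 and at 17.1 and 18.8 CPM at day 3, a log2 fold change of -2.94 ± 0.30 (SE, edgeR adjusted p = 5.08e-05). Id2 fell by 2.40 on the log2 scale. Id3 was lower by 2.92 on the log2 scale, a call lost without day 3 replicate 2 (edgeR adjusted p = 0.0653). Heyl, a target of Notch signalling, was at 1.22 and 0.987 CPM and then at 49.4 and 60.8 CPM, with a log2 fold change of 5.65. Bhlhe40 and Bhlhe41, transcriptional repressors, rose by 1.83 and 1.76 on the log2 scale. Hes6, a Hes relative that promotes myogenesis, was at 36.4 and 25.8 CPM and then at 270 and 286 CPM, a log2 fold change of 3.16. Pax7, the satellite cell factor, was at 24.7 and 19.5 CPM and then at 32.3 and 34.1 CPM, which did not pass the test (edgeR adjusted p = 0.309).

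All 29 tested thick filament genes rose, with a median log2 fold change of 7.82. Of 25 thin filament genes 19 rose and 3 fell (median 5.91, with 1 fall without day 3 replicate 1), and of 33 Z-disc and intermediate filament genes 26 rose and none fell (median 3.38). Together with the excitation-contraction coupling list, these 120 genes took 0.855% and 0.785% of all counts at day 0 and 6.54% and 7.14% at day 3. The rules that shaped the lists were knowledge of muscle proteins and earlier results of these data, so the counts describe the lists and do not test them.

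Myh3 was the most abundant of the myosin heavy chains given here at day 3. Myh3, the embryonic heavy chain, was at 15.6 and 7.54 CPM at day 0 and at 5301 and 8304 CPM at day 3, and its log2 fold change was 9.20 ± 0.61 (SE, edgeR adjusted p = 5.1e-06). Per kilobase of transcript it reached a mean of 1106 CPM at day 3, followed by Myh1 at 125, Myh7 at 68 and the perinatal Myh8 at 62.2 CPM per kilobase. Myh4, the fast IIb chain, was at 3.87 and 0.149 CPM and then at 56.6 and 226 CPM. The replicates of Myh4 thus differed several-fold at each day, although the days did not overlap, and its log2 fold change of 6.2 carried an SE of 1.19. Myh6 and Myh7, the cardiac and slow chains, rose by 9.36 and 8.90 on the log2 scale. Myh13, the extraocular chain, was at 0 counts in both day 0 libraries and at 0.385 and 0.562 CPM at day 3, at least 6.52-fold higher with the day 0 level set to 3 counts per library. Among light chains, Mylpf, the fast skeletal form, was at 25.6 and 5.66 CPM and then at 4096 and 3567 CPM, a log2 fold change of 7.94. Myl4, the embryonic and atrial form, was at 8.61 and 2.59 CPM and then at 2688 and 2349 CPM, a log2 fold change of 8.83. Myl2, the slow and ventricular form, had 0 counts at day 0 and 18.4 and 16.6 CPM at day 3, which is at least 241-fold higher against the same floor. The giant protein titin, encoded by Ttn, was at 19.7 and 16.6 CPM and then at 1226 and 1958 CPM, a log2 fold change of 6.45.

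In the thin filament, Acta1, the skeletal actin gene (chr8:126415669-126418651, mm9), was at 38.1 and 8.89 CPM at day 0 and at 5259 and 4866 CPM at day 3. Its log2 fold change was 7.76 ± 0.73 (SE, edgeR adjusted p = 3.62e-05), and the day 0 replicates differed more from each other than those of day 3. Actc1, the cardiac form used in embryonic muscle, rose alongside by 7.78 on the log2 scale. Troponins of slow and of fast muscle rose together. Tnni1, the slow troponin I, was at 12.3 and 6.33 CPM and then at 2482 and 2281 CPM, a log2 fold change of 8.00, while Tnni2, its fast relative, rose by 8.27. Tnnt2, the cardiac troponin T of early muscle, was already at 261 and 195 CPM and reached 1974 and 2015 CPM, a log2 fold change of 3.13. The tropomodulins, which cap the pointed ends of actin filaments, parted. Tmod1 was at 1.73 and 1.81 CPM and then at 91.2 and 122 CPM, a log2 fold change of 5.91. Tmod4, the skeletal tropomodulin, was at 0.745 and 0.484 CPM and then at 0.65 and 1.1 CPM, with no call (edgeR adjusted p = 0.347). Desmin, the muscle intermediate filament encoded by Des, was at 916 and 812 CPM and then at 3154 and 3239 CPM. Its log2 fold change of 1.89 passed the test on all libraries and missed it without day 0 replicate 1 (edgeR adjusted p = 0.0543) or without day 0 replicate 2 (edgeR adjusted p = 0.0703). Ankrd2, a stretch-responsive protein of the sarcomere, went from 0.0894 and 0.0559 CPM, 3 reads a library, to 86.6 and 62.5 CPM, a ratio of 1071 (exact 95% interval of the counts 492 to 2920, for counting error only).

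**Figure D2:**
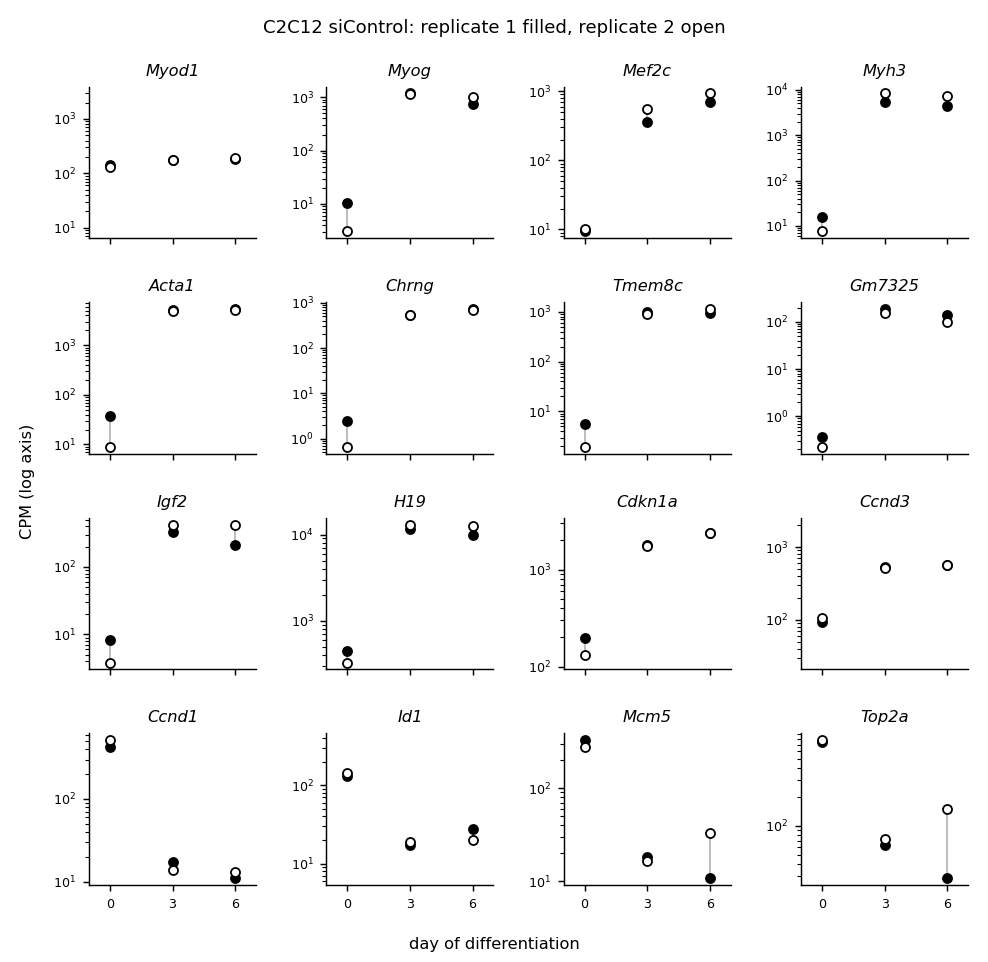
The CPM of selected genes is drawn on a log scale for each siControl C2C12 library of days 0, 3 and 6, 1 point per library. Myog and the contractile genes lie orders of magnitude higher at day 3 than at day 0, the day 0 replicates are spread more widely than those of day 3 for Acta1 and Myog, and Top2a and Mcm5 are spread widely at day 6.

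Of 33 excitation-contraction coupling genes 27 rose, none fell and 6 did not pass, with a median of 3.43. Casq2, a calcium buffer of the sarcoplasmic reticulum, was at 3.72 and 1.6 CPM at day 0 and at 1452 and 1539 CPM at day 3, a log2 fold change of 9.15 ± 0.50 (SE, edgeR adjusted p = 2.77e-06). Cacna1s, the voltage sensor, was at 2.26 and 0.615 CPM and then at 411 and 487 CPM, a log2 fold change of 8.34. Ryr1, the release channel that it opens, was at 7.69 and 5.36 CPM and then at 614 and 916 CPM, a log2 fold change of 6.88. Stac3, a partner of both, rose by 4.73, and Scn4a, the muscle sodium channel, by 9.58 on the log2 scale. Atp2a1, the fast calcium pump, was at 6.91 and 3.19 CPM and then at 824 and 1107 CPM, a log2 fold change of 7.59. Clcn1, the chloride channel that steadies the resting potential of mature fibres, was at 0.983 and 1.36 CPM and then at 0.722 and 1.27 CPM, and these days overlapped.

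Most junction genes and some of the adhesion and fusion genes rose. Of 19 neuromuscular junction genes 16 rose and none fell (median 2.59). Of 33 adhesion and fusion genes 12 rose, 21 did not pass in either direction, and the median was 0.23, or 0.40 without day 0 replicate 2 and 0.43 without day 3 replicate 2. Chrng, the fetal subunit of the acetylcholine receptor (chr1:89102386-89108410, mm9), was at 2.44 and 0.652 CPM at day 0 and at 532 and 532 CPM at day 3, a log2 fold change of 8.47 ± 0.66 (SE, edgeR adjusted p = 1.15e-05). Chrne, the adult subunit that replaces it in innervated muscle, was at 0 and 0.0186 CPM and then at 0.65 and 0.937 CPM, and it was at 4.6 and 5.06 CPM at day 6. With 1 read over both day 0 libraries, its ratio of 70.1 has an exact 95% counting interval from 12.2 to 2808. The alpha subunit gene Chrna1 was high from the start, at 368 and 281 CPM, and reached 1914 and 1786 CPM, a log2 fold change of 2.51. Chrnd and Chrnb1, the delta and beta subunits, rose by 5.43 and 2.07 on the log2 scale. The receptor genes thus started from very different levels at day 0 and all 5 rose. The fusion proteins myomaker and myomixer are listed under the older symbols Tmem8c and Gm7325. Tmem8c was at 5.69 and 1.94 CPM and then at 989 and 879 CPM, a log2 fold change of 7.96. Gm7325 was at 0.357 and 0.224 CPM and then at 187 and 154 CPM, a log2 fold change of 9.23 ± 0.45 (SE, edgeR adjusted p = 1.55e-06). Ncam1, an adhesion molecule of myotubes, was at 191 and 154 CPM and then at 1064 and 1018 CPM, a log2 fold change of 2.59. Of 23 dystrophin complex and sarcolemma genes 13 rose and 2 fell (1 without day 0 replicate 2 or day 3 replicate 1), with Dmd at 0.238 and 0.0559 CPM and then at 11.5 and 18 CPM, a log2 fold change of 6.78.

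The stretch of 250 bases before the start site of Acta1 and of Chrng is shown because the genes rose together with their lists and hold letters that bHLH and Tead factors are known to read. Both were chosen after the search. Capitals mark the E-box CAGCTG, which reads the same on both strands, and in Acta1 also CATTCC, the MCAT element. Bases are from NCBIM37 (mm9), chr1:89102136-89102385 on the plus strand for Chrng and chr8:126418652-126418901 on the minus strand for Acta1.
Chrng: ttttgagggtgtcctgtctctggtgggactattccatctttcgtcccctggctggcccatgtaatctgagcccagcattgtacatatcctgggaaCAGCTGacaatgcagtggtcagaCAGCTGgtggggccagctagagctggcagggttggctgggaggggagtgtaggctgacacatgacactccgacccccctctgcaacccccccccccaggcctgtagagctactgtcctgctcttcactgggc
Acta1: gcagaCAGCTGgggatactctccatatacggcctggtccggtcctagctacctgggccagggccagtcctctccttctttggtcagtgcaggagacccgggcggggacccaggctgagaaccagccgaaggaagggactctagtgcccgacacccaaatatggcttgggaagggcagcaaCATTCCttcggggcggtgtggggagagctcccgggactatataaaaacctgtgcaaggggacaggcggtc
The E-boxes of Chrng lie at -155 to -150 and -132 to -127 from the start, and Acta1 holds CAGCTG at -245 to -240 and CATTCC at -70 to -65. Of 139 genes on the sarcomere, coupling and junction lists with a promoter, 40 (28.8%) held CAGCTG in this window, against 17.5% of the 2447 genes that rose, 10.6% of the 1934 that fell and 11.9% of the 15264 tested genes with a promoter. CATTCC or its reverse complement was present in 25 (18.0%) of the list genes and 10.8% of the tested genes. The Mef2 consensus, searched on both strands, was present in 20 (14.4%) and 2.18%. The other common E-box, CACCTG, was found in 21.6% and 15.8%. These shares were not tested, and a match of letters does not show that a factor was bound.

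Of 39 creatine, glycogen and glycolysis genes 17 rose and 5 fell (median 0.73), with 3 falls without either day 3 library. Ckm, the muscle creatine kinase, was at 2.12 and 0.298 CPM at day 0 and at 396 and 398 CPM at day 3, a log2 fold change of 8.44. Mb, the oxygen store myoglobin, was at 3.52 and 0.559 CPM and then at 760 and 717 CPM, a log2 fold change of 8.55. Pgam2, the muscle phosphoglycerate mutase, was at 1.01 and 0.969 CPM and then at 86.9 and 105 CPM, a log2 fold change of 6.60. Its relative Pgam1 was at 232 and 257 CPM and then at 97.9 and 94.2 CPM, a log2 fold change of -1.35. Per kilobase the order of the pair turned, with means of 133 for Pgam1 and 1.18 for Pgam2 at day 0 and of 52.4 and 114 CPM per kilobase at day 3. The same crossing was seen for phosphofructokinase, where Pfkm rose by 3.60 on the log2 scale and went from a mean of 17.8 to 216 CPM per kilobase. Pfkl, the liver form, went from 62.9 to 34.2 CPM per kilobase, and its log2 fold change of -0.88 was under the size threshold. Eno1, the general enolase, was at 1190 and 1094 CPM and then at 453 and 450 CPM, a log2 fold change of -1.34 (edgeR adjusted p = 0.00221). Eno3, the muscle enolase, was at 705 and 533 CPM and then at 1318 and 1331 CPM, a log2 fold change of 1.10 (edgeR adjusted p = 0.0434). That call was lost without any 1 of the 4 libraries, with edgeR adjusted p between 0.0902 and 0.21. Among glucose carriers, Slc2a1 fell by 1.57 and Slc2a4, the insulin-responsive form, rose by 2.57 on the log2 scale, but Slc2a4 was only at 2.96 and 3.19 CPM at day 3.

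Few respiratory chain genes passed the test. Of 60 tested respiratory chain genes 4 rose, fewer than the 16.0% of all genes would give, none fell, and the median was 0.10, or between -0.04 and 0.25 when a library was left out. Without day 0 replicate 2 the rises numbered 2. Atp5b, an ATP synthase subunit, was at 2346 and 2063 CPM at day 0 and at 1955 and 1902 CPM at day 3, with no call (log2 fold change -0.19). The muscle isoforms of cytochrome oxidase were the exception. Cox6a2 was at 0.387 and 0.13 CPM and then at 39.1 and 39.2 CPM, a log2 fold change of 7.33, and its mean of 59.5 CPM per kilobase at day 3 remained under the 212 of the general form Cox6a1. Cox8b was at 0 and 0.0186 CPM and then at 11.8 and 9.37 CPM, a ratio of 917 that rests on 1 read at day 0 (exact 95% counting interval 164 to 36244). Of 36 citrate cycle, fat oxidation and mitochondrial regulator genes 8 rose and 2 fell (median 0.28), with no fall without day 0 replicate 1 or day 3 replicate 2. Where 10 counts in every library were required, 3 of 30 such genes rose and 1 fell. Cd36, a fatty acid carrier, was at 0.179 and 0.298 CPM and then at 79.3 and 109 CPM, a log2 fold change of 8.56. Ppargc1a, a coactivator of mitochondrial genes, was at 0.328 and 0.112 CPM and then at 3.22 and 5.48 CPM, a log2 fold change of 4.38.

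Of 39 genes of the non-muscle cytoskeleton 5 rose and 12 fell, with a median of -0.71. Without day 3 replicate 2 the falls numbered 6, and without any 1 library the rises numbered 3. Vim, the intermediate filament protein of growing mesenchymal cells, was at 6462 and 6323 CPM at day 0 and at 2200 and 2013 CPM at day 3, a log2 fold change of -1.60 ± 0.31 (SE, edgeR adjusted p = 0.00247). Cfl1, the general cofilin, fell by 1.34 on the log2 scale and Cfl2, the muscle cofilin, rose by 1.71. Per kilobase, Cfl1 nevertheless stayed above Cfl2 at day 3, with means of 486 and 195 CPM. Tpm3 was at 362 and 331 CPM and then at 160 and 161 CPM, a log2 fold change of -1.11, while the beta tropomyosin Tpm2 was at 321 and 296 CPM and then at 2938 and 2929 CPM, a log2 fold change of 3.25. Actb, the beta actin gene, was at 3506 and 3434 CPM and then at 1353 and 1181 CPM, a log2 fold change of -1.45 whose call was lost without day 3 replicate 2 (edgeR adjusted p = 0.0706). Per kilobase, the mean of Actb went from 1577 to 576 CPM while that of Acta1 went from 16.2 to 3501 CPM, so the order of the actins turned between the days.

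**Figure D3:**
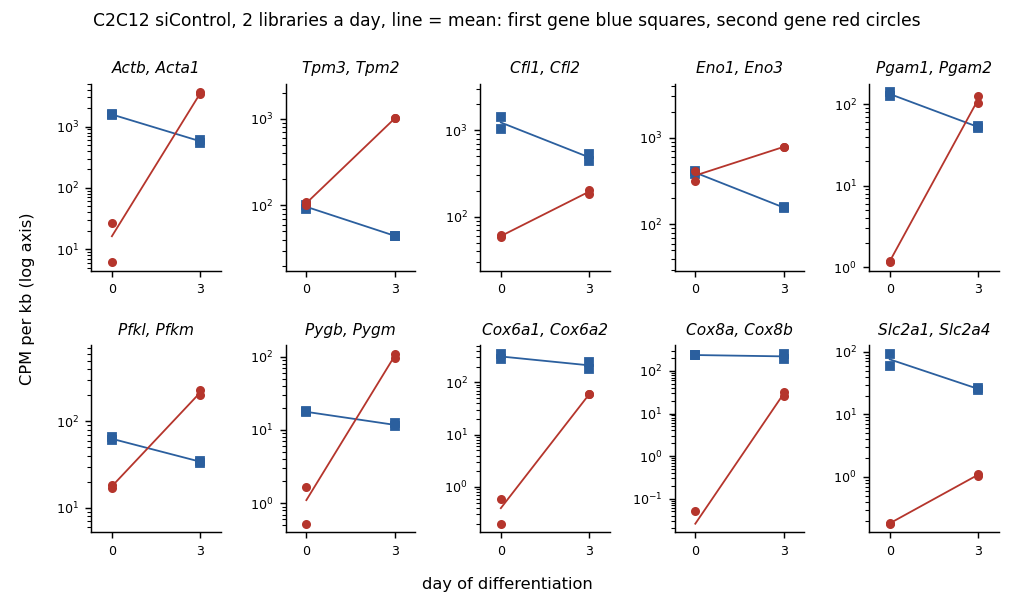
For pairs of related genes, the points give the CPM per kilobase in each siControl C2C12 library at days 0 and 3 on a log scale, with lines through the means. The mean of the muscle form is higher at day 3 than at day 0 in each pair, the order of Actb and Acta1 and of Pgam1 and Pgam2 turns, that of Cfl1 and Cfl2 and of Cox6a1 and Cox6a2 does not, and the Cox8b library at 0 is not drawn.

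Genes for DNA replication and mitosis fell. All 50 and all 51 genes tested on these lists fell, with medians of -2.74 and -3.26. Leaving out a library kept 49 or 50 of the replication calls. Of the mitosis calls, 50 and 48 remained without a day 0 library, 31 without day 3 replicate 1 and 27 without day 3 replicate 2. The mitosis median was nevertheless -3.27 without day 3 replicate 1 and -3.21 without day 3 replicate 2. The replication and mitosis lists together took 1.56% of the counts in each day 0 library and 0.216% and 0.205% at day 3. In bulk RNA, fewer cells of a type and less RNA per cell cannot be told apart. Mcm5, a subunit of the replicative helicase, was at 326 and 273 CPM at day 0 and at 18.2 and 16.5 CPM at day 3, a log2 fold change of -4.11 ± 0.79 (SE, edgeR adjusted p = 0.00252). The other helicase subunits fell too, with log2 fold changes from -3.69 for Mcm3 to -2.60 for Mcm6. Pcna, the sliding clamp of the polymerases, was at 331 and 286 CPM and then at 75.5 and 63.3 CPM, a smaller log2 fold change of -2.15. Smc2, a condensin subunit, was at 308 and 313 CPM and then at 30 and 32.1 CPM, a log2 fold change of -3.32. Cdk1, the mitotic kinase, named after its values were seen, was at 297 and 255 CPM and then at 29.2 and 23.8 CPM, a log2 fold change of -3.38. Top2a, the topoisomerase of dividing cells, was at 742 and 779 CPM and then at 63.3 and 73.1 CPM, a log2 fold change of -3.48. Its call was lost without day 3 replicate 1 (edgeR adjusted p = 0.069) or without day 3 replicate 2 (edgeR adjusted p = 0.0618), and its day 6 libraries were far apart at 28.5 and 148 CPM.

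The promoters of Cdk1 and Mcm5 are shown because they carry letters known from cell cycle genes, and they too were chosen after the search. Capitals mark CCAAT or its reverse complement ATTGG, the CHR element TTTGAA in Cdk1, and the E2F sequence GCGCCAAA in Mcm5. The 250 bases before the start are taken from mm9, chr10:68815687-68815936 on the minus strand for Cdk1 and chr8:77633177-77633426 on the plus strand for Mcm5.
Cdk1: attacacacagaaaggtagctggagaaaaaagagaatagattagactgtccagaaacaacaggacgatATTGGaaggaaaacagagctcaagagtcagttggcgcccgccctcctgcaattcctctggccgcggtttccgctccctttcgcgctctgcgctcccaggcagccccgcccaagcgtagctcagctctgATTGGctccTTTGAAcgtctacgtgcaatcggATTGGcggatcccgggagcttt
Mcm5: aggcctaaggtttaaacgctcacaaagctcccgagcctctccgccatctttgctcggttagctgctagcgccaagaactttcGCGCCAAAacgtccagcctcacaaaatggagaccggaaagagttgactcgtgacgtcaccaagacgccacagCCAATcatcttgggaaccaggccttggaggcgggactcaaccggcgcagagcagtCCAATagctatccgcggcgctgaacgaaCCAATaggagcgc
In Cdk1 the TTTGAA at -45 to -40 lies between a pair of ATTGG matches that begin at -54 and -22. Mcm5 holds GCGCCAAA at -168 to -161 and CCAAT at 3 places. CCAAT was in 37 (72.5%) of the 51 mitosis promoters, 27 (54.0%) of the 50 replication promoters and 35.2% of all tested ones, counting both strands. TTTGAA or its reverse complement was in 18 (35.3%) of the mitosis and 6.0% of the replication promoters, against 11.6% of all tested. The E2F letters, TTTGGCGC or GGCGGGAA on either strand, were in 11 (22.0%) of the replication and 1.96% of the mitosis promoters, against 3.77% of all tested. CAGCTG was in 6.0% of the replication and 11.8% of the mitosis promoters, against the 11.9% of all tested genes.

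The regulators of G1 moved both ways, with 7 of 31 up, 10 down and a median of -0.40. Without day 0 replicate 2 the rises numbered 4. The median came to -0.78 without day 3 replicate 1, -0.69 without day 0 replicate 2 and -0.24 without day 3 replicate 2. Cdkn1a, which encodes p21, was at 196 and 133 CPM at day 0 and at 1794 and 1744 CPM at day 3, a log2 fold change of 3.43 ± 0.33 (SE, edgeR adjusted p = 3.95e-05). Rb1, the retinoblastoma gene, was at 41.3 and 39.9 CPM and then at 203 and 232 CPM, a log2 fold change of 2.42, whereas its relative Rbl1 fell by 2.52. The D cyclins, partners of Cdk4 and Cdk6, took separate courses. Ccnd1 was at 421 and 515 CPM and then at 17.4 and 14 CPM, a log2 fold change of -4.90 ± 0.30 (SE, edgeR adjusted p = 4.07e-06). Ccnd3 was at 92.6 and 108 CPM and then at 535 and 518 CPM, a log2 fold change of 2.39. Ccnd2 had a log2 fold change of -1.06 and no call. Gadd45a, a gene of growth arrest, rose by 3.57, and Cdkn1c, the inhibitor p57, by 2.98 on the log2 scale, the latter with a call lost without day 0 replicate 2 (edgeR adjusted p = 0.0561).

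**Figure D4:**
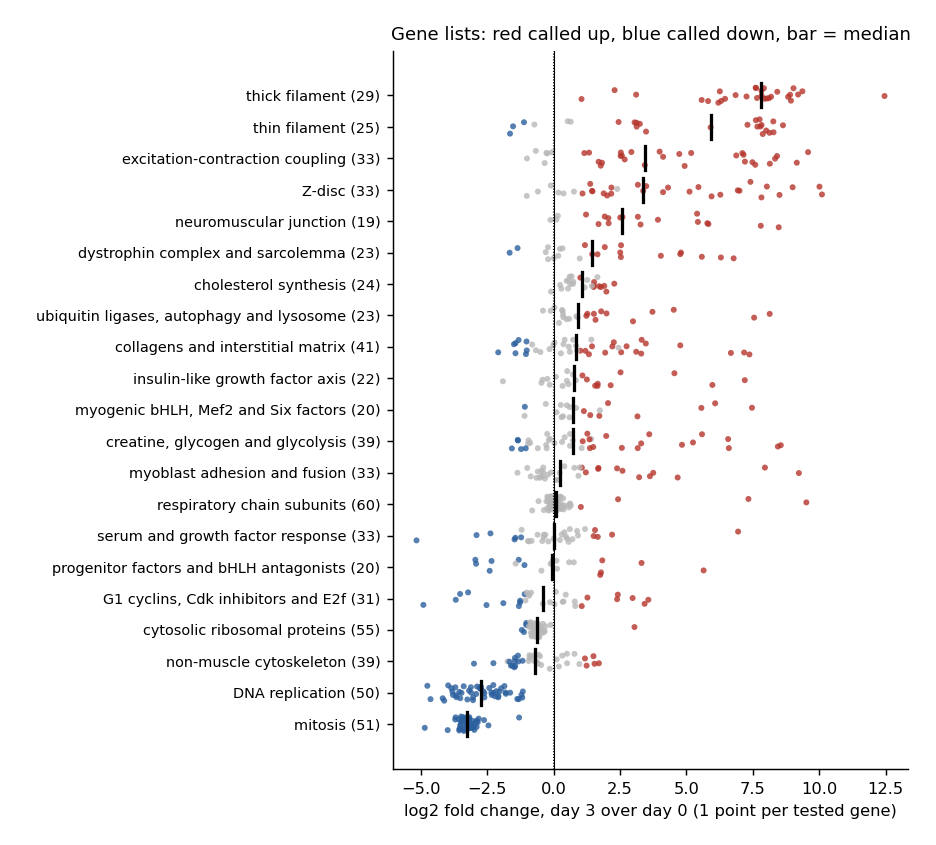
For each gene list, the points give the log2 fold change of its tested members in C2C12 siControl cells, day 3 against day 0 (red for genes that rose, blue for genes that fell), and the bars their median, beside a dotted line at the median of all genes tested, -0.01. The thick filament list lies highest with a median of 7.82, the mitosis list lowest with -3.26, and the respiratory chain list lies close to 0.

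Of 22 genes of the insulin-like growth factor axis 10 rose, none fell and 12 did not pass, with a median of 0.79. Igf2, a growth factor that myoblasts secrete on their own behalf, was at 8.25 and 3.84 CPM at day 0 and at 333 and 424 CPM at day 3, a log2 fold change of 5.98 ± 0.61 (SE, edgeR adjusted p = 5.81e-05). H19, the noncoding RNA of the same imprinted locus, was at 445 and 330 CPM and then at 11702 and 13040 CPM, a log2 fold change of 5.00. It took 0.0448% and 0.0335% of all counts at day 0 and 1.14% and 1.25% at day 3, and no gene gained more CPM. Igfbp5, a binding protein for these factors, was at 543 and 651 CPM and then at 2474 and 2827 CPM, a log2 fold change of 2.15. Mest, another imprinted gene, was at 4.56 and 5.98 CPM and then at 70.2 and 74.7 CPM, a log2 fold change of 3.78. Of 13 imprinted and noncoding genes 6 rose and 2 fell, a median of 0.92 that came to 0.61 without day 3 replicate 1.

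Other signal lists held genes that rose and genes that fell. Of all genes tested 16.0% rose and 12.7% fell, and the counts of the Tgfb list lay near these shares. Of 39 genes for Tgfb, activin and BMP signals 8 rose and 5 fell (median 0.36), and 3 fell without any 1 library. Fst, which binds activin and myostatin, was at 5.45 and 6.41 CPM at day 0 and at 326 and 456 CPM at day 3, a log2 fold change of 6.04 ± 0.48 (SE, edgeR adjusted p = 1.26e-05). Tgfb3 rose by 2.92, the activin subunit gene Inhbb by 2.33 and Chrdl1, a secreted BMP antagonist, by 6.93 on the log2 scale. Of 37 Wnt genes 12 rose and 3 fell (median 0.57), and of 18 Notch genes 4 rose and 3 fell (median -0.01, or 0.08 without day 3 replicate 1). Without any 1 library at most 1 Notch gene fell, and without day 0 replicate 2 only 1 Wnt gene did. The Wnt median came to 0.35 without day 3 replicate 2. Wif1, a secreted Wnt inhibitor, had 0 counts in both day 0 libraries and 4.98 and 5.12 CPM at day 3, at least 69.6-fold higher. Axin2, a common Wnt target, was at 0.834 and 0.689 CPM and then at 4.5 and 6.69 CPM, a log2 fold change of 2.88. Dll1, a Notch ligand, was at 1.1 and 0.652 CPM and then at 21.8 and 27.5 CPM, a log2 fold change of 4.84, and Dtx4, a ubiquitin ligase linked to Notch, rose by 3.39. Of 33 serum and growth factor response genes 5 rose and 6 fell (median 0.01), and 3 rose without either replicate 1 library. That median came to -0.40 without day 3 replicate 1 and to 0.60 without day 3 replicate 2, and the counts of this list lay near the shares of all genes. Several of these separated the replicates of day 3 and not the days. Ctgf, a Yap target, was at 148 and 117 CPM at day 0 and at 339 and 65.9 CPM at day 3. Cyr61, a target of the same kind, was at 370 and 326 CPM and then at 572 and 163 CPM. Fosl1, an AP-1 subunit of growing cells, fell clearly, from 33.6 and 43.4 CPM to 0.963 and 1.19 CPM, a log2 fold change of -5.16. Spry1, a feedback inhibitor of receptor kinases, was at 0.417 and 0.428 CPM and then at 55.8 and 49.4 CPM, a log2 fold change of 6.95.

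Among the Tead genes and their partners, Tead4 and Wwtr1 rose. Of 25 genes for Tead factors, their cofactors and Yap targets 6 rose and none fell, with a median of 0.19. In other settings 1 gene fell, with the replicate number as a block, without a filter, on the siControl libraries of both days only and without day 0 replicate 1, and 2 fell with library totals alone. Tead4 was at 19.8 and 22.2 CPM at day 0 and at 113 and 151 CPM at day 3, a log2 fold change of 2.65 ± 0.36 (SE, edgeR adjusted p = 0.000343). Tead1 was at 74.6 and 118 CPM and then at 97.5 and 155 CPM, so that its replicates differed at both days and the days overlapped (log2 fold change 0.39, edgeR adjusted p = 0.653). Tead3 was at 20.9 and 22.1 CPM and then at 48.1 and 42.6 CPM, with a log2 fold change of 1.08 that came to 0.99 without day 3 replicate 1. Tead2 had a log2 fold change of 0.05. Wwtr1, the Tead coactivator also called Taz, was at 160 and 178 CPM and then at 403 and 406 CPM, a log2 fold change of 1.26, and the cofactor gene Vgll3 rose by 1.63.

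Messages of matrix genes changed in both directions, though most falls among collagens and interstitial matrix genes were lost when a library was left out. Of 41 collagens and interstitial matrix genes 17 rose and 8 fell (median 0.85). Leaving out a library gave 8 rises and 2 falls without day 0 replicate 1, 10 and 2 without day 0 replicate 2, 13 and 1 without day 3 replicate 1, and 10 and 0 without day 3 replicate 2. Of 27 proteases and inhibitors 10 rose and 4 fell (median 0.46), and 2 fell without day 3 replicate 2. Dcn, the small proteoglycan decorin, was at 1.1 and 0.708 CPM at day 0 and at 184 and 72.7 CPM at day 3, a log2 fold change of 7.17. Col3a1 was at 823 and 1350 CPM and then at 2372 and 3101 CPM, a log2 fold change of 1.33. The call of Col3a1 was lost without day 0 replicate 1 (edgeR adjusted p = 0.186), day 3 replicate 1 (0.0566) or day 3 replicate 2 (0.142), each by edgeR. Fn1, fibronectin, was the most abundant of the list at 3854 and 4268 CPM and then 6531 and 6992 CPM, a log2 fold change of 0.74 under the threshold. Plaur, the urokinase receptor, was at 160 and 153 CPM and then at 6.52 and 5.12 CPM, a log2 fold change of -4.75. Serpinb2, an inhibitor of the same system, was at 38.1 and 123 CPM and then at 0.0963 and 0.167 CPM, a log2 fold change of -9.21. Nid1, a basement membrane linker, was at 895 and 1866 CPM and then at 247 and 303 CPM, a log2 fold change of -2.33. Beside these, 6 of 11 fibroblast markers rose and 1 fell, with 4 of the 11 at or under the floor at a day and 1 of 5 rising where 10 counts in every library were required, and their summed level was 175 and 189 CPM at day 0 and 481 and 410 CPM at day 3. Pdgfrb was the most abundant of them, at 90.8 and 91 CPM and then at 221 and 270 CPM, a call lost without day 0 replicate 1 (edgeR adjusted p = 0.0521) or day 3 replicate 2 (edgeR adjusted p = 0.0528). The defining fibroblast gene Thy1 had 0, 0, 2 and 0 counts, and Dpt had 0 counts at day 0 and 49 and 37 at day 3. The part of such cells in the matrix changes was not tested.

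Few genes separated day 6 from day 3. With edgeR no gene passed the call between day 6 and day 3, and 406 of 15303 genes had an unadjusted p under 0.05. That is fewer than a threshold of 0.05 gives when no gene differs. The lack of calls therefore does not show that no gene changed. DESeq2 called 19 genes, all higher at day 6. The median change from day 3 to day 6 was 0.08 on the log2 scale among the genes that had risen by day 3 and 0.01 among those that had fallen. The mitosis list separated the day 6 libraries, with its median gene 1.81 lower in replicate 1 than in replicate 2 on the log2 scale. Myog itself was at 738 and 1012 CPM at day 6.

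The nearest comparison in the series is the same interval in siControl PMs. In PMs 16144 genes were tested, 2821 (17.5%) rose and 2398 (14.9%) fell. Of the 14577 genes tested in both cell types, 1318 rose in both, which is 56.7% of the C2C12 rises and 55.7% of the PM rises, and 1200 fell in both, which is 66.2% and 54.9%. Opposite calls were rarer, with 93 genes up in C2C12 cells and down in PMs and 35 the other way. The difference of the changes was tested directly over 16926 genes, and it was higher in C2C12 cells for 1260 (7.44%) and lower for 641 (3.79%).

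Thick filament and regulator genes were among those that differed, as a small part of all called. For 24 of the 29 thick filament genes the rise was larger in C2C12 cells, with medians of 7.82 in C2C12 cells and 2.28 in PMs. Among the genes for bHLH and Mef2 factors and their partners the difference was higher for 10 of 20 and lower for none. Myog was at 958 and 1038 CPM in PMs at day 0 and at 949 and 1121 CPM at day 3. PMs thus held at day 0 a level near that of C2C12 cells at day 3, with each cell type on its own scaling. The difference of its changes was 7.41 ± 0.72 (SE, log2, edgeR adjusted p = 2.54e-06). Igf2 and H19 likewise stood far higher in PMs at day 0, with Igf2 at 1824 and 1497 CPM and H19 at 12651 and 10170 CPM. Mest went in opposite directions. In PMs it was at 1218 and 1392 CPM and then at 149 and 273 CPM, and the difference of its changes was 6.39 ± 0.91 (SE, log2, edgeR adjusted p = 0.000126). Ccnd3, which rose by 2.39 on the log2 scale in C2C12 cells, had a log2 fold change of 0.01 in PMs. Cell cycle genes fell in both cell types. Of the 50 replication genes 48 fell in PMs (median -2.92), of the 51 mitosis genes 50 fell (median -3.38), and the difference was called for 1 gene on each list. These were Rrm2, a subunit of ribonucleotide reductase, higher in C2C12 cells, and Pttg1, the securin gene, lower in C2C12 cells, the latter named after its values were seen. Respiratory chain genes had a median of 0.10 in C2C12 cells (-0.04 to 0.25 without 1 library) and 0.76 in PMs. In PMs 10 of the 60 rose, near the 17.5% of all genes that rose there. The difference of the changes was called higher for 2 and lower for 2. For collagens and matrix genes it was higher for 4 and lower for 11 of 41.

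**Figure D5:**
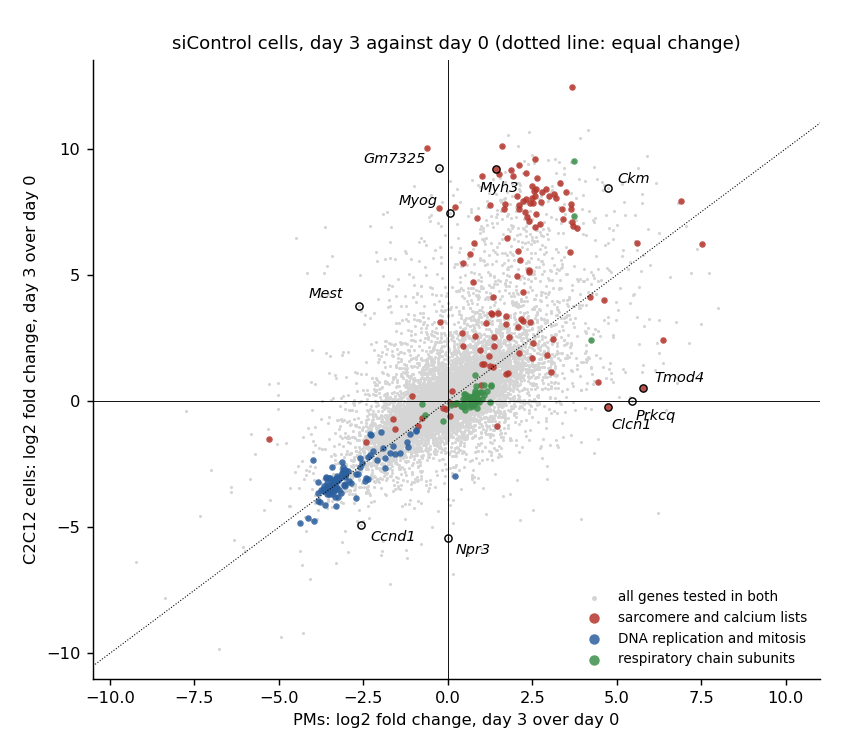
Each point is a gene tested in both cell types, with the log2 fold change, day 3 against day 0, in siControl PMs on the x axis and in siControl C2C12 cells on the y axis. Red marks the sarcomere and calcium lists, most of which lie above the dotted line of equal change, blue the replication and mitosis lists, which lie along it with Pttg1 as the clearest exception, and green the respiratory chain, while Myog is near 0 in PMs and at 7.47 in C2C12 cells.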

How the data were processed

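The authors deposited 1 table with raw read counts per gene and library, together with normalized values and fold changes that were not used here. The submitters' processing notes list CASAVA 1.8.2, TopHat2 2.0.10, Bowtie2 2.1.0, HTSeq 0.6.1, DESeq2 1.8.1 and build mm9, without their order. Libraries came from poly(A)-selected RNA and an unstranded kit, so reads of overlapping genes cannot be told apart. Of 108 columns with values per sample, 84 were not used, among them those that belong to no listed sample.

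The counts were analysed with edgeR 4.0.16 in R 4.3.3 (limma 3.58.1). Genes were kept by filterByExpr, libraries scaled by TMM, and a quasi-likelihood model with 1 mean per group was fitted to the 12 C2C12 libraries, which share 1 estimate of the spread. Called genes had a Benjamini-Hochberg adjusted p under 0.05 over all genes tested and a log2 fold change over 1 in size. Each SE is the size of the log2 change divided by the square root of its quasi-likelihood F statistic. It thus rests on the spread shared by all groups of the fit and not only on the 2 replicates of a day. The difference between C2C12 cells and PMs was a contrast in a fit of all 24 libraries. Each code was tested on simulated data. With 2 replicates a group, which the labels call biological duplicates, p-values measure the spread between these samples only. Folds against a group at 0 used 3 counts per library. Exact 95% intervals were computed for the ratios of Ankrd2, Chrne, Cox8b and Prl2c2, which rest on a few reads. Both cover counting error only. Other genes with few reads in a library, among them Dmd, Serpinb2 and Trim63, have the log2 fold change of the fit without such an interval. Alternatives used DESeq2 1.42.0, other scalings, filters and fits, and the removal of each library.

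The 36 gene lists and the comparison itself were chosen with earlier results of these data known, so lists are described by counts and medians and not tested. Genes named in the text were the up to 6 most abundant tested members of each list and the members that complete a family, the 10 largest rises and falls with at least 10 counts in each of the 4 libraries, the 5 largest gains and losses in CPM, the 5 highest genes that were near 0 at a day, the 5 largest differences from PMs each way, Tead1, Tead4 and the differentiation genes of the study. A few genes that this rule names are not reported here. Promoters are the 250 bases before the most used start of each gene in GENCODE annotation of NCBIM37, the build of the files, and 15264 of the 15303 genes tested were matched by identifier.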

Additional observations from a re-analysis of the deposited data

Results flagged for a closer look

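The change from day 0 to day 3 differed between C2C12 cells and PMs for 1260 genes with a higher and 641 with a lower change in C2C12 cells, by the test of the difference itself in edgeR. The strains and the history of these cells differ along with the cell type, and these cannot be told apart. The genes with the largest differences among those with at least 10 counts in each of the 8 libraries follow.

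Gm7325, the fusion gene myomixer, had a log2 difference of 9.47 ± 0.73 (SE). PMs already held it at 65.4 and 94.1 CPM at day 0 and were at 62.5 and 71.5 CPM at day 3. Rbm24, a splicing regulator of striated muscle, showed the same form with a difference of 8.09 ± 0.57. It went from 1.61 and 0.261 CPM to 204 and 217 CPM in C2C12 cells, while PMs were at 335 and 357 CPM and then at 302 and 311 CPM. Otog, known from the inner ear, had a difference of 8.57 ± 0.76, with 0.328 and 0.186 CPM and then 62.3 and 59 CPM in C2C12 cells and 46.6 and 70.5 CPM and then 33 and 41.4 CPM in PMs. Nov, a secreted matricellular protein, had a difference of 7.92 ± 1.0 and moved in opposite directions, from 0.506 and 1.01 CPM to 17.4 and 10.5 CPM in C2C12 cells and from 3.2 and 4.9 CPM to 0.324 and 0.267 CPM in PMs. Myh7, the slow myosin, had a difference of 7.91 ± 0.76 and was at 12.4 and 25.2 CPM and then at 32.1 and 43.1 CPM in PMs.

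Of the 5 genes with the most negative difference, 4 were higher at day 3 in PMs and had no rise in C2C12 cells. Tmod4, the skeletal tropomodulin, had a log2 difference of -5.25 ± 0.56 (SE), and PMs went from 1.46 and 0.845 CPM to 67.1 and 62.5 CPM. Clcn1, the muscle chloride channel, had a difference of -4.99 ± 0.50, and PMs went from 0.995 and 1.07 CPM to 28.8 and 26.3 CPM. Prkcq, a protein kinase C abundant in muscle, had a difference of -5.43 ± 0.46. It stayed between 0.529 and 0.708 CPM in the C2C12 libraries and went from 1.97 and 2.11 CPM to 93 and 84.3 CPM in PMs. Nfatc2, a calcium-regulated factor linked to myotube growth, had a difference of -5.03 ± 0.50, with 1.22 and 1.25 CPM and then 0.481 and 0.479 CPM in C2C12 cells and 1.74 and 1.89 CPM and then 23.1 and 22.4 CPM in PMs. Npr3, the natriuretic clearance receptor, had a difference of -5.43 ± 0.64 as it fell from 52.1 and 35.6 CPM to 1.06 and 1.0 CPM in C2C12 cells while PMs stayed between 3.83 and 4.73 CPM. Prkcq, Tmod4 and Clcn1 were thus called in PMs and had no call in C2C12 cells, and for each the difference itself passed the test.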

How the results depend on the processing

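None of the 364 genes chosen by the naming rule reversed a call under any alternative run for them, and the counts of rises and falls stayed within 1.5 times under most. They were 2545 and 1820 with DESeq2 size factors, 2320 and 2114 with library totals alone, 2763 and 2115 without a filter, 2618 and 2069 on the siControl libraries of both days only, and 2532 and 1738 with the DESeq2 Wald test. A test against a log2 change of 1 (glmTreat) called 1452 rises and 862 falls, as it asks for a change significantly over 1. Requiring 10 counts in every library compared left 1632 rises and 839 higher differences from PMs, with 12769 genes tested in C2C12 cells. Of the 2450 rises 1583 were called there. Leaving out each library in turn gave 1870 to 2086 rises, 1319 to 1618 falls, 957 to 1140 higher and 418 to 608 lower differences. The lower differences came to 418 without PM siControl day 0 replicate 2 and to 427 without PM siControl day 3 replicate 1. Of these genes, 23 to 31 lost their call without a library, and in these fits the lone sample of a day is assumed to vary like the other groups.

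With library totals alone, the median of all genes in the difference from PMs moved to 0.17 on the log2 scale, and 1521 differences were higher and 501 lower. With the replicate number as a block the counts were 2514 rises and 1974 falls, of which 2415 and 1914 were shared with the fit without it, and 1324 higher and 695 lower differences. Samples with the same number deviated together between days 0 and 3 (r = 0.369 across genes), but with 2 numbers and no statement on what they share, they are not taken as pairs. Among lists without a fall, library totals alone gave 1 for the Z-disc, 2 for adhesion and fusion and 1 for the insulin-like growth factor axis. Without a filter 1 gene fell on each of these lists. On the siControl libraries of both days only, 1 fell for adhesion and fusion and 1 for the insulin-like growth factor axis. The DESeq2 Wald test gave 1 for the latter. With glmTreat the collagen and matrix list had 9 rises and no fall, the non-muscle cytoskeleton 1 and 3, and cholesterol synthesis 1 rise. Depth limits the genes near the floor, where folds are bounds, and 2 replicates a day limit the rest. Filament mRNA at day 0 was higher in replicate 1, so folds of those genes depend on which day 0 library is used.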

Other observations

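The counts of further gene groups are read against the 16.0% of all genes that rose and the 12.7% that fell. All but 1 of 55 genes for cytosolic ribosomal proteins were lower at day 3, but by little, with a median of -0.63 on the log2 scale, 4 that fell and 1 that rose, fewer than these shares would give. The falls numbered from 1 to 11 when a library was left out, with 1 without day 0 replicate 1 or day 3 replicate 2 and 11 without day 0 replicate 2. They took 3.33% and 2.62% of the counts at day 0 and 1.87% and 1.62% at day 3. The exception was Rpl3l, the muscle form of Rpl3, named after its values were seen. It was at 0.0298 and 0.0186 CPM, under the floor, and then at 0.241 and 0.187 CPM. Its call was lost with the DESeq2 Wald test, and without either day 0 library or day 3 replicate 1. Of 74 snoRNAs tested 47 fell and 1 rose (median -1.94), in libraries selected for polyadenylated RNA. Gas5, a noncoding host of snoRNAs, was at 128 and 110 CPM and then at 41.3 and 39.3 CPM, a log2 fold change of -1.57. Reads of a snoRNA and of the intron that holds it cannot be told apart without strand and junction information.

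Of 23 genes for ubiquitin ligases, autophagy and lysosome 11 rose and none fell (median 0.92). Trim63, the ligase MuRF1 of the sarcomere, was at 0.387 and 0.0931 CPM and then at 60.3 and 63.1 CPM, a log2 fold change of 8.13. Map1lc3a, an autophagosome protein, rose by 2.99 on the log2 scale and Ctsd, a lysosomal protease, by 1.27. Of 24 cholesterol synthesis genes 9 rose, none fell and 23 were higher (median 1.09). The rises numbered 2, 1, 2 and 2 without day 0 replicate 1, day 0 replicate 2, day 3 replicate 1 and day 3 replicate 2, and 13 both without a filter on low counts and on the siControl libraries of both days only. Of 30 interferon and antigen presentation genes 5 rose and none fell (median 0.47, or 0.26 without day 3 replicate 1), with 1 rise without day 0 replicate 1, 2 without any other library, 9 without a filter on low counts and 10 of 27 on the siControl libraries of both days only. Of 19 basement membrane genes 4 rose and 2 fell.

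Of the largest falls, Nefl, the light neurofilament subunit, was at 120 and 111 CPM and then at 1.06 and 1.65 CPM, a log2 fold change of -6.41 ± 0.40 (SE, edgeR adjusted p = 4.36e-06). Nefm, its medium partner, was at 87.6 and 84.7 CPM and then at 1.76 and 1.94 CPM, a log2 fold change of -5.54. Prl2c2, a prolactin-like factor of growing cells with near-identical copies whose reads may be shared, was at 40.4 and 66.6 CPM and then at 0.0481 and 0.0625 CPM, which is 5 reads over both day 3 libraries and a ratio of day 0 to day 3 of 1013 (exact 95% counting interval 434 to 3120).

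Markers of other cell types gave mixed and small counts, and leaving out a library took calls from the Schwann cell, osteoblast and adipocyte lists. With so few calls on a list, the loss of 1 can remove every rise, as it did for the adipocyte list. Of 7 Schwann cell markers 1 rose and 2 fell, and their summed level of 152 and 116 CPM at day 0 and 420 and 488 CPM at day 3 followed Erbb3, which muscle cells also express, while Sox10 had at most 1 count in a library. Of 12 osteoblast and chondrocyte markers 1 rose and 2 fell (4 fell with library totals alone), and their sum was mostly Spp1. Of 6 adipocyte markers 1 rose and 1 fell, of 4 endothelial markers 3 rose and 1 fell at a summed level under 3 CPM (1 rose without day 0 replicate 1 or day 3 replicate 2), and of 6 macrophage markers 1 rose and none fell (2 fell in the fit that blocks on replicate, and 2 without a filter), with sums of 10.2 and 8.74 CPM and then 6.38 and 5.21 CPM. Within day 3, replicate 1 held more of several immediate early messages than replicate 2, with Dusp1 at 123 and 30.0 CPM, Myc at 83.6 and 22.2 CPM and Fos at 25.7 and 4.92 CPM.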
